A study of Mus musculus with 12 samples.

Results

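The proteasome is the large protease that degrades ubiquitin-tagged proteins in the cytosol and nucleus. Its core particle is a barrel of stacked alpha and beta rings, with the protease sites on the inner face of the beta rings, and its regulatory particle is built from a base, whose ATPases unfold substrates, and a lid, which removes ubiquitin. Lymphocytes also make inducible catalytic subunits that replace the standard ones, and the core can carry activator caps in place of the regulatory particle. Proteasome genes were taken as the rows whose symbol begins with Psm, a letter from a to g and a digit, without the inducible subunits Psmb8 and Psmb9. This gave 47 of the 17203 genes listed. They were 7 core alpha subunits, 7 core beta subunits, the inducible core subunit Psmb10, 6 base ATPases, 3 base subunits without ATPase activity, 8 lid subunits, 5 activator genes, the inhibitor Psmf1, 4 chaperones of core assembly and 3 chaperones of base assembly. The other 2 matches are no subunits: Psmc3ip encodes a meiotic recombination factor, and Psma5-ps is a processed pseudogene of Psma5. Psma8 and Psmb11 were not analysed here.

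Bulk RNA was sequenced from primary CD4+ T cells of C57BL/6 mice in 4 groups of 3 libraries. CD3_CD28_ICOS cells received soluble antibodies to CD3, CD28 and ICOS for 72 h, and CD3_CD28 cells received plate-bound anti-CD3 with soluble anti-CD28 for 72 h. CD3 cells received plate-bound anti-CD3 alone for 72 h, and Unstimulated cells were freshly isolated and not activated. The first 2 groups thus differ in anti-ICOS and also in whether anti-CD3 was soluble or plate-bound, and activation and 72 h of culture cannot be told apart in any comparison with Unstimulated cells. No label names a transduction of these cells, although the series text mentions one. Whether the libraries within each group are separate mice or cultures is not given, so the p-values measure a spread between libraries that may be technical.

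Values were the deposited CPM, reads per gene scaled to a fixed total in each library, and the step between low values gave 11.4 to 37.5 M assigned reads per library. A gene was tested at 10 CPM or more in at least 3 libraries, which 9826 genes passed. Of the proteasome genes 44 were tested, 40 of them at 10 CPM or more in all 12 libraries. Psmc3ip passed through the CD3 group alone, where it was high, so its calls in comparisons with CD3 cells were favoured by the filter. Psma5, Psmb3 and Psme2 were not tested. Changes are log2 fold changes of CPM + 1 from limma with standard errors (SE), and a gene was called at a Benjamini-Hochberg adjusted p under 0.05 over all tested genes. Replicate libraries correlated at r = 0.968 to 0.993 across genes. Within CD3_CD28_ICOS, replicate 1 was the highest of the 3 libraries for 38 of the 44 tested proteasome genes, against 41.2% of all tested genes. Within CD3_CD28, replicate 1 was the lowest for 40 of the 44, against 66.6% of all tested genes, and 11.8% of its total lay in 1 ribosomal RNA gene. All 7 CD4 T cell markers (Cd3d, Cd3e, Cd3g, Cd4, Trac, Lck and Cd28) were detected in each group. Summed, they had 4135 to 4472 CPM in CD3_CD28_ICOS cells, 2793 to 3241 CPM in CD3_CD28 cells, 3256 to 3779 CPM in CD3 cells and 4970 to 5469 CPM in Unstimulated cells.

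Proteasome transcripts were most abundant after anti-CD3 alone. The 47 genes summed to 4442, 3751 and 3787 CPM in CD3_CD28_ICOS cells, to 3438, 3849 and 3993 CPM in CD3_CD28 cells, to 5045, 5135 and 4988 CPM in CD3 cells and to 3219, 3562 and 3349.7 CPM in Unstimulated cells. The 3 CD3 libraries lay above the other 9 libraries, and the Unstimulated libraries overlapped those of CD3_CD28. CD3 had the highest group mean for 35 of the 44 tested genes, against 31.9% of all tested genes. The 35 include Psmc3ip, which passed the filter through CD3 cells alone. Unstimulated cells had the lowest mean for 25 of the 44, against 37.5% of all tested genes, and CD3_CD28 cells for 15, against 38.5% of all tested genes. An F test over the 3 stimulated groups called 37 of 44 genes, Psmc3ip among them, and it called 80.7% of all tested genes. The 7 genes not called were the alpha subunit Psma3, the beta subunit Psmb1, the ubiquitin receptor Psmd4, the chaperones Psmd5 and Psmg4, the activator Psme1 and the inhibitor Psmf1.

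**Figure D1:**
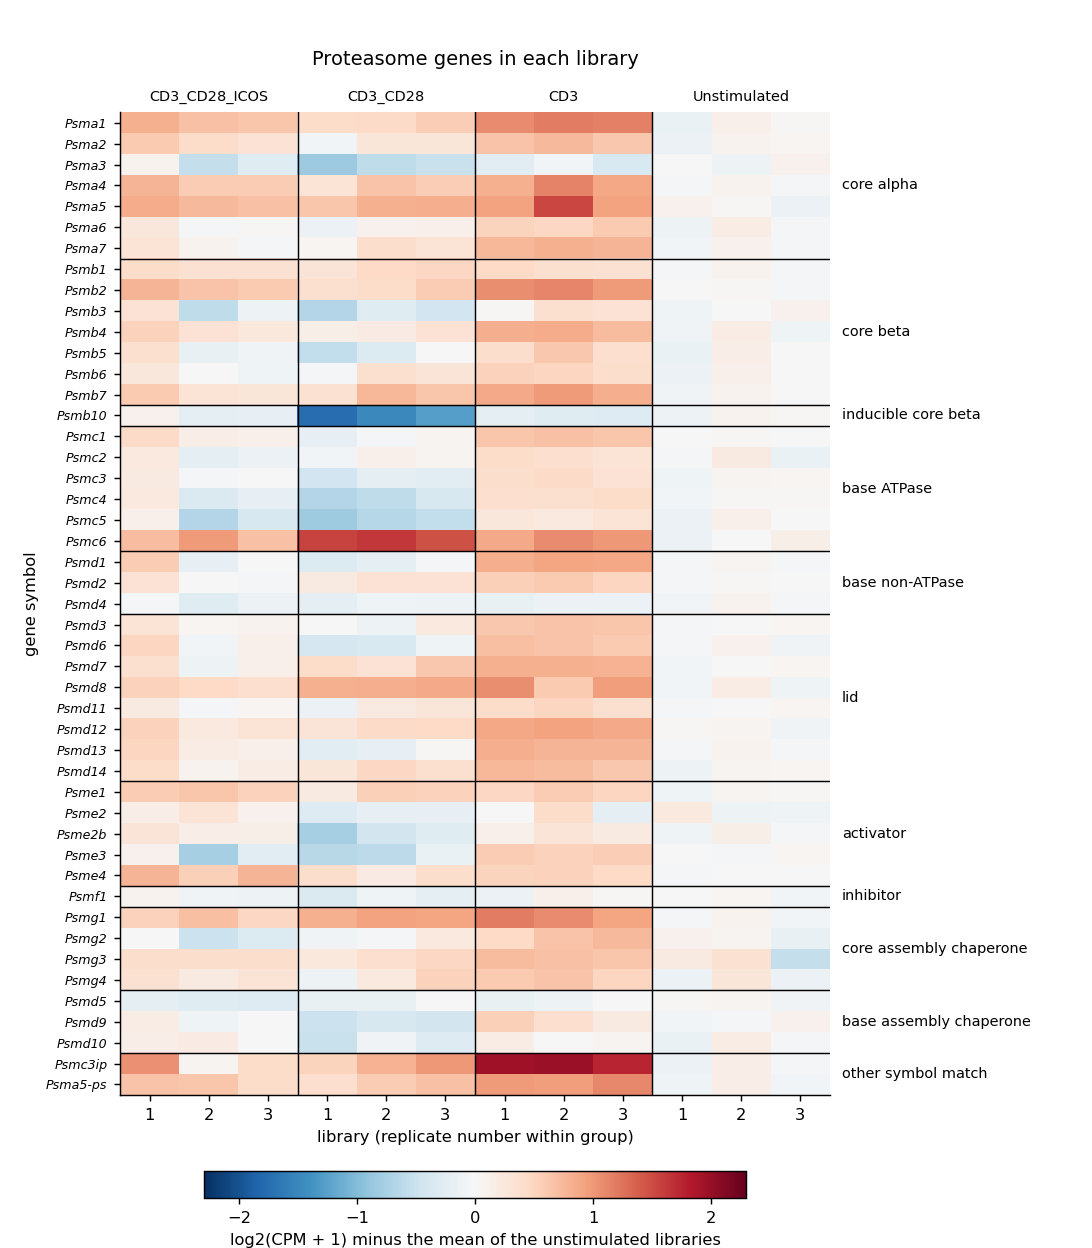
Heat map of 47 proteasome genes (rows, by role) in 12 libraries (columns), coloured by log2(CPM + 1) minus the mean of the Unstimulated libraries. Most rows are reddest in the 3 CD3 libraries, while Psmb10 is blue and Psmc6 reaches its deepest red in the 3 CD3_CD28 libraries.

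Levels of different genes were compared per kilobase of the principal transcript. Over the 31 subunits of the standard core, base and lid, the median was 51.8 CPM per kb in CD3_CD28_ICOS cells, 53.0 in CD3_CD28 cells, 72.1 in CD3 cells and 46.7 in Unstimulated cells. The alpha subunit Psma7 had the highest level per kb in all 4 groups, at 138 CPM per kb in CD3_CD28_ICOS, 153 in CD3_CD28, 220.3 in CD3 and 127 in Unstimulated cells. Psma3, Psma5 and Psmb3, which encode single obligatory ring subunits, stood far below their partners. Psma3 had 3.38 CPM per kb in CD3_CD28_ICOS, 2.45 in CD3_CD28, 3.40 in CD3 and 4.01 in Unstimulated cells.

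These low values lay beside processed copies of the same genes. Of all stretches of 100 bases in the transcripts of Psma3, 20.0% occur unchanged in the pseudogene Gm13835, and that copy had 70.8 CPM on average over the 12 libraries, against 9.42 CPM for Psma3. Psma5 averaged 5.51 CPM, Psma5-ps 47.9 CPM and the copy Gm12989 15.7 CPM. Psmb3 averaged 7.06 CPM, and its copies Gm4950 and Gm6467 averaged 18.0 and 17.2 CPM. Psme2, which encodes the partner of Psme1 in an activator ring, averaged 2.77 CPM, and its intronless copy Psme2b averaged 187 CPM. Reads from such pairs cannot be assigned with certainty, so values of these parent genes are uncertain. Among all 47 genes, 32 share no stretch of 100 bases with another gene.

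**Figure D2:**
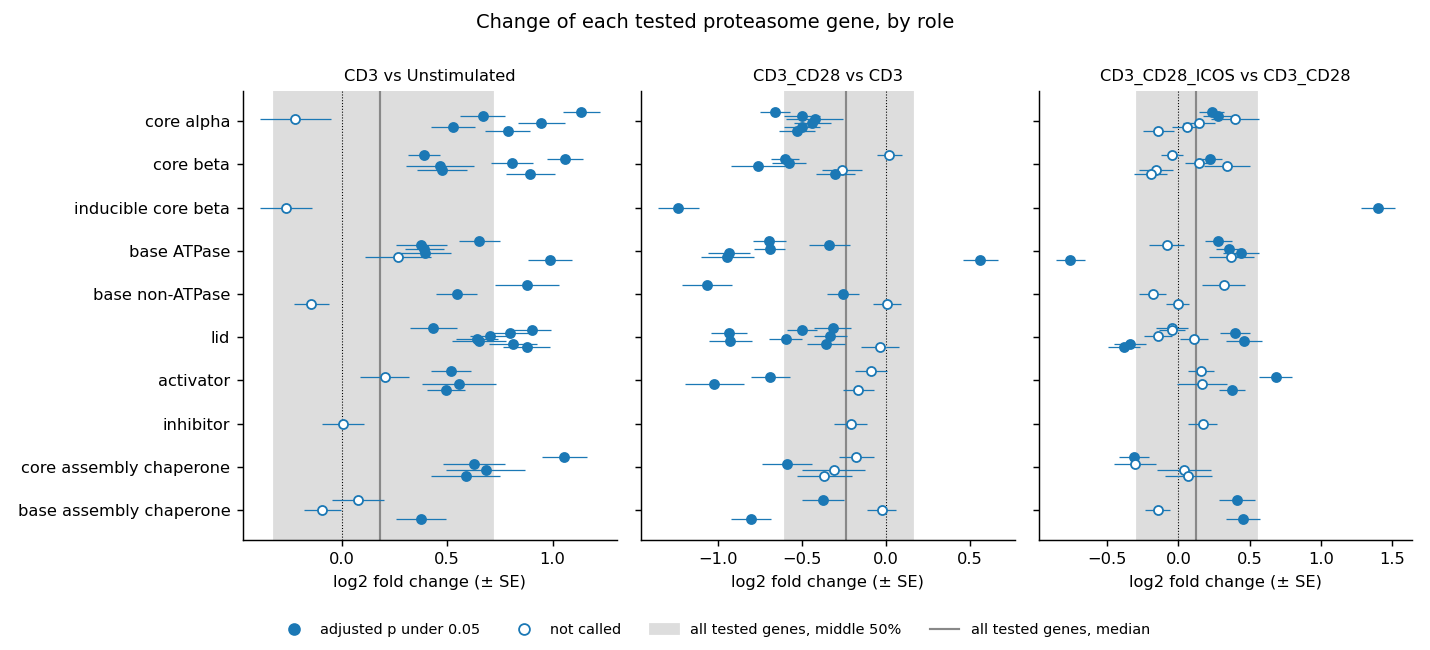
Log2 fold change (± SE) of each tested proteasome gene by role in 3 comparisons, with filled points for genes called at an adjusted p under 0.05. The grey band and line give the middle 50% and the median of all 9826 tested genes; in CD3 against Unstimulated cells all 8 lid genes lie to the right of the grey line.

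Transcripts of core, base, lid and core assembly genes were higher in CD3 cells than in Unstimulated cells. Of 44 tested genes 36 were called higher and 0 lower, where limma called 43.6% of all tested genes higher, 26.3% lower and 69.8% in either direction. At an unadjusted p under 0.05, limma gave 1 gene lower, which was Psmb10. The groups did not overlap for 39 of the 44 genes and for 76.9% of all tested genes. The median log2 fold change was 0.61 over the 44 genes and 0.18 over all tested genes. Median-of-ratios scaling took the median of all tested genes to 0.01 and that of the 44 to 0.45, with 32 called higher and 4 lower. Quantile normalization gave 30 higher and 5 lower. Of the 36 genes, 30 were called higher under each of the 23 alternative settings that held their rows. Psma5-ps is among the 30 and had no row of its own where copies were added to their parent genes. Without Psmc3ip, 35 of 43 genes were higher, and the groups did not overlap for 38 of 43. The 32 genes with no shared stretch gave 26 higher and 0 lower. Markers of several cell types moved with this comparison. Of the CD4 T cell markers 6 of 7 were called lower and 1 higher (median log2 fold change -0.72), and of the B cell markers 3 of 6 higher and 0 lower (median 1.04), with B cell sums of 280.1 to 615 CPM in CD3 cells and 111 to 198 CPM in Unstimulated cells. The 5 acinar markers summed to 0.453 to 0.966 CPM in CD3 cells and 226 to 1161 CPM in Unstimulated cells, the 6 myeloid markers to 6.96 to 8.26 CPM in CD3 cells and 126 to 305 CPM in Unstimulated cells, and the 4 erythroid and platelet markers to 0.351 to 2.24 CPM in CD3 cells and 71.6 to 141 CPM in Unstimulated cells. Their part in the result was not tested, and in bulk RNA fewer cells of a type and less RNA per cell cannot be told apart.

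In the core, 11 of 12 tested standard subunits rose in CD3 cells. The alpha subunit Psma1 (chromosome 7, 114264606 to 114276118, minus strand, mm10) had 169.6, 179 and 177 CPM in CD3 cells against 71.5, 85.9 and 80.7 CPM in Unstimulated cells. The groups did not overlap, and its log2 fold change was 1.14 ± 0.09 (SE; limma adjusted p = 6.18e-08). The beta subunit Psmb2, which has no protease site, had 141, 147 and 133 CPM in CD3 cells against 67.3, 68.4 and 65.1 CPM in Unstimulated cells (1.06 ± 0.08, limma adjusted p = 7.68e-08). All 3 standard catalytic subunits rose. Psmb7, the trypsin-like subunit, had 104, 111 and 100.5 CPM in CD3 cells against 52.6, 59.2 and 56.1 CPM in Unstimulated cells (0.89 ± 0.12, limma adjusted p = 1.01e-05). Psmb6, the caspase-like subunit, changed by 0.48 ± 0.12 (limma adjusted p = 0.00276). Psmb5, the chymotrypsin-like subunit, changed by 0.47 ± 0.16 (limma adjusted p = 0.0192), a call lost under both scalings and without CD3 replicate 2 (adjusted p = 0.0762) or Unstimulated replicate 1 (adjusted p = 0.0729). Psma3 gave -0.22 ± 0.17 (limma adjusted p = 0.258) and 0.40 (adjusted p = 0.0119) once its copy was added to it.

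In the base, 7 of 9 subunits rose. Psmd1, a scaffold of the base, had 162, 168 and 168 CPM in CD3 cells against 88.1, 94.3 and 87.1 CPM in Unstimulated cells (0.88 ± 0.15, limma adjusted p = 0.000155). The ATPase Psmc6 had 135, 157 and 146 CPM in CD3 cells against 66.3, 73.5 and 79.8 CPM in Unstimulated cells (0.99 ± 0.10, limma adjusted p = 1.37e-06). The other called genes were Psmc1, Psmc2, Psmc3, Psmc4 and the scaffold Psmd2, with changes of 0.38 to 0.65, and the calls of Psmc2 and Psmc4 were lost under at least 1 alternative. Psmd4, a ubiquitin receptor, had 110.5, 113 and 114 CPM in CD3 cells against 119, 132 and 123 CPM in Unstimulated cells (-0.15 ± 0.08, limma adjusted p = 0.131). It kept a narrow range in all 12 libraries, of 102 to 132 CPM.

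All 8 lid subunits rose, with a median log2 fold change of 0.75. Their summed level was 1009.6, 951 and 964 CPM in CD3 cells and 555, 604 and 573 CPM in Unstimulated cells. Psmd12 had the largest change, at 119, 122 and 118 CPM in CD3 cells against 64.7, 66.6 and 60.1 CPM in Unstimulated cells (0.90 ± 0.09, limma adjusted p = 8.01e-07). Psmd14, the deubiquitinase of the lid, had 157, 153 and 143 CPM in CD3 cells against 84.9, 96.1 and 95.4 CPM in Unstimulated cells (0.70 ± 0.10, limma adjusted p = 2.2e-05). The smallest lid change was that of Psmd11, at 0.43.

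All 4 chaperones of core assembly rose, though at low levels. Psmg1 had 35.8, 33.4 and 29.4 CPM in CD3 cells against 15.0, 16.2 and 14.5 CPM in Unstimulated cells (1.06 ± 0.11, limma adjusted p = 7.85e-07). Psmg2, its partner in an assembly dimer, changed by 0.63 ± 0.15 (limma adjusted p = 0.00179), and the other pair, Psmg3 and Psmg4, by 0.68 ± 0.19 (adjusted p = 0.00555) and 0.59 ± 0.16 (adjusted p = 0.00544). The calls of Psmg3 and Psmg4 were lost under quantile normalization. Of the chaperones that assemble the base, Psmd9 was called (0.37 ± 0.12, limma adjusted p = 0.0113), a call lost under both scalings and without CD3 replicate 1 (adjusted p = 0.0604). Psmd10, also known as gankyrin, gave 0.08 ± 0.12 (limma adjusted p = 0.599), and Psmd5 gave -0.09 ± 0.09 (limma adjusted p = 0.366). Psmf1, which encodes an inhibitor of the core in vitro, had 44.4, 53.6 and 50.3 CPM in CD3 cells against 49.5, 50.9 and 47.0 CPM in Unstimulated cells (0.01 ± 0.10, limma adjusted p = 0.96).

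Adding anti-CD28 to plate-bound anti-CD3 went with lower proteasome transcripts than anti-CD3 alone. Between CD3_CD28 and CD3 cells 32 of 44 genes fell and 1 rose, where limma called 45.7% of all tested genes lower, 18.7% higher and 64.4% in either direction. There was no overlap between the groups for 36 of the 44 genes and for 72.4% of all tested genes. The median log2 fold change was -0.48 over the 44 genes and -0.24 over all tested genes. Median-of-ratios scaling moved both medians, to -0.27 and -0.03, with 24 genes lower and 4 higher, and quantile normalization gave 24 lower and 2 higher. Of the 32 genes, 24 were called lower under each of the 23 alternative settings that held their rows. Psma5-ps and Psme2b are among the 24 and had no rows of their own where copies were added to their parent genes. Without CD3_CD28 replicate 1 the count was 26 lower and 1 higher. Without Psmc3ip it was 31 of 43 lower and 1 higher, with no overlap for 35 of 43. The B cell markers moved with this comparison as well: the 6 genes summed to 6.67 to 9.36 CPM in CD3_CD28 cells and 280.1 to 615 CPM in CD3 cells, and Ms4a1, Pax5 and Cd22 were under 1 CPM in each CD3_CD28 library. Of the CD4 T cell markers 6 of 7 were lower and 1 higher (median -0.44), and of the 3 tested CD8 and NK cell markers 2 were lower and 1 higher. Their part in the result was not tested.

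All 6 tested alpha subunits, 4 of 6 beta subunits, 7 of 9 base subunits and 7 of 8 lid subunits fell. Psma1 had 106, 108 and 118 CPM in CD3_CD28 cells against 169.6, 179 and 177 CPM in CD3 cells (-0.66 ± 0.09, limma adjusted p = 2.92e-05). Psmb5 had 18.9, 22.6 and 28.2 CPM in CD3_CD28 cells against 37.9, 43.9 and 37.3 CPM in CD3 cells (-0.76 ± 0.16, limma adjusted p = 0.00107). Psmd1 showed the largest decrease among the subunits of base and lid, with 72.0, 77.6 and 87.2 CPM in CD3_CD28 cells against 162, 168 and 168 CPM in CD3 cells (-1.07 ± 0.15, limma adjusted p = 5.46e-05). Of its CD3_CD28 libraries, 1 lay within the 87.1 to 94.3 CPM of Unstimulated cells and 2 lay below. The lid subunit Psmd13 had 50.4, 52.7 and 61.0 CPM in CD3_CD28 cells against 108, 104 and 103 CPM in CD3 cells (-0.94 ± 0.11, limma adjusted p = 8.02e-06), and the ATPase Psmc5 fell by 0.95 on the log2 scale (limma adjusted p = 0.00018). Psmd14 fell by 0.33, a call lost under both scalings.

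Other genes did not pass the test in this comparison. Psmb1 had 189, 210.2 and 213 CPM in CD3_CD28 cells and 209, 197 and 196 CPM in CD3 cells (0.02, limma adjusted p = 0.829). The lid subunit Psmd8 had 178, 182 and 186 CPM in CD3_CD28 cells and 214, 154 and 197 CPM in CD3 cells (-0.03, limma adjusted p = 0.799). In both genes the groups overlapped. Psmb6 gave -0.26 ± 0.12 (limma adjusted p = 0.0666), and Psmg1, Psmg3 and Psmg4 gave -0.18 to -0.37 without a call. Psmg2 fell by 0.59 ± 0.15 (limma adjusted p = 0.00338). Of the base chaperones, Psmd9 fell by 0.81 ± 0.12 (limma adjusted p = 6.18e-05) and Psmd10 by 0.38 ± 0.12 (limma adjusted p = 0.0178), while Psmd5 gave -0.03 ± 0.09 (limma adjusted p = 0.803). The call of Psmd10 was lost under both scalings, without CD3 replicate 1 (limma adjusted p = 0.0646) and without CD3_CD28 replicate 1 (limma adjusted p = 0.0845).

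Relative to Unstimulated cells, CD3_CD28 cells had 17 of 44 genes higher and 9 lower, where limma called 36.1% of all tested genes higher, 39.1% lower and 75.2% in either direction. The groups did not overlap for 27 of the 44 genes and for 76.7% of all tested genes. The median log2 fold change was 0.14 over the 44 genes and -0.04 over all tested genes. The subunits split: 12 of 29 tested subunits of the standard core, base and lid rose and 4 fell. Psmc6, Psmd8 (0.84 ± 0.11) and Psmb7 (0.59 ± 0.12) led the increases. The ATPases Psmc5 (-0.68 ± 0.16), Psmc4 (-0.54 ± 0.12) and Psmc3 (-0.30 ± 0.09) were lower, so that genes for 1 hexameric ring moved in both directions. All 6 B cell markers (median -4.09), all 4 tested myeloid markers (median -4.94), both tested erythroid and platelet markers (median -5.23) and all 5 acinar markers (median -6.80) were called lower in CD3_CD28 cells here, as were 5 of 7 CD4 T cell markers (median -1.02), with 1 higher. Their part in the result was not tested.

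Between CD3_CD28_ICOS cells, given soluble antibodies, and CD3_CD28 cells, the median proteasome gene moved no more than the median of all tested genes. Relative to CD3_CD28 cells 13 of 44 genes rose and 4 fell, where limma called 38.5% of all tested genes higher, 24.5% lower and 63% in either direction. Non-overlapping groups were found for 17 of the 44 genes and for 64.8% of all tested genes. The median log2 fold change was 0.13 both over the 44 genes and over all tested genes. This split depended on scaling: median-of-ratios scaling gave 8 higher and 13 lower, with medians of -0.02 over the 44 genes and -0.01 over all tested genes, and quantile normalization gave 9 higher and 13 lower. Without CD3_CD28_ICOS replicate 1 it was 9 higher and 9 lower, without CD3_CD28 replicate 1 it was 8 higher and 5 lower, and without both it was 4 higher and 12 lower. Under each alternative setting that held their rows, 3 genes were called higher: Psmb10, the activator copy Psme2b and the base chaperone Psmd9. Those called lower under each were 2, Psmc6 and Psmd8. Psme2b had no row of its own where copies were added to their parent genes. B cell markers summed to 191 to 575 CPM in CD3_CD28_ICOS cells and 6.67 to 9.36 CPM in CD3_CD28 cells. The CD4 T cell markers were called higher in 6 of 7 cases (median 0.69), the tested CD8 and NK cell markers in 2 of 3 (median 1.41) and the tested myeloid markers in 1 of 4. The part of these markers in the differences was not tested.

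Psmd8 had 146, 139 and 133 CPM in CD3_CD28_ICOS cells against 178, 182 and 186 CPM in CD3_CD28 cells (-0.38 ± 0.11, limma adjusted p = 0.00864). Psmd9 had 19.7, 16.3 and 17.6 CPM in CD3_CD28_ICOS cells against 12.2, 13.3 and 12.7 CPM in CD3_CD28 cells (0.45 ± 0.12, limma adjusted p = 0.0041). In both genes the groups did not overlap. The largest changes of the lid and ATPase genes in the upward direction, those of Psmd6 (0.46 ± 0.13) and Psmc4 (0.44 ± 0.12), were lost without the first replicate of both groups. Psmd10 rose by 0.41 ± 0.12 (limma adjusted p = 0.0111), a call lost without CD3_CD28 replicate 1 (limma adjusted p = 0.0543). Psmg1 fell by 0.31 ± 0.11 (limma adjusted p = 0.0185), a call lost without CD3_CD28 replicate 2, CD3_CD28 replicate 3 or CD3_CD28_ICOS replicate 3 (limma adjusted p = 0.0506 to 0.0718). Psmd6 had 74.0 CPM in CD3_CD28_ICOS replicate 1 and 50.4 and 56.8 CPM in the other 2 libraries.

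Relative to CD3 cells, CD3_CD28_ICOS cells had 30 of 44 genes lower and 0 higher, where limma called 28.7% of all tested genes lower, 18.9% higher and 47.7% in either direction. At an unadjusted p under 0.05, limma gave 1 gene higher, the activator Psme4. No overlap was found for 35 of the 44 genes and for 58.5% of all tested genes. The median log2 fold change was -0.42 over the 44 genes and -0.07 over all tested genes. Median-of-ratios scaling left 27 lower and 1 higher. Without Psmc3ip, 29 of 43 genes were lower, and the groups did not overlap for 34 of 43. Of the CD8 and NK cell markers 2 of the 3 tested were called higher in this comparison (median 0.59), among them Cd8a, which had 18.2 to 46.6 CPM in CD3_CD28_ICOS cells against 7.55 to 11.1 CPM in CD3 cells. The NK cell markers Klrb1c and Ncr1 were under 1 CPM in each library of both groups. The CD4 T cell markers were called higher in 4 of 7 cases (median 0.29), the B cell markers in 0 of 6 (median 0.08), and 1 of 4 tested myeloid markers was lower. Their part in the result was not tested. All 8 lid subunits fell, by 0.36 to 0.69 on the log2 scale, as did 9 of 12 tested standard core subunits and 7 of 9 base subunits. Psmd7, a lid subunit, had 83.2, 59.1 and 70.2 CPM in CD3_CD28_ICOS cells against 115, 115 and 113 CPM in CD3 cells (-0.69 ± 0.11, limma adjusted p = 0.000288). Psmg2 had 17.5, 12 and 13.7 CPM in CD3_CD28_ICOS cells against 24.3, 28.1 and 30.0 CPM in CD3 cells (-0.90 ± 0.15, limma adjusted p = 0.000307).

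Relative to Unstimulated cells, CD3_CD28_ICOS cells had 16 of 44 genes higher and 1 lower, where limma called 35.6% of all tested genes higher, 23.7% lower and 59.4% in either direction. The groups were apart for 19 of the 44 genes and for 64.5% of all tested genes. The median log2 fold change was 0.17 over the 44 genes and 0.08 over all tested genes, and the share of genes called higher was close to that of all tested genes. Both scalings gave 14 higher and 5 lower. Without CD3_CD28_ICOS replicate 1 the count was 14 higher and 6 lower. The 16 genes include 7 of the 12 tested standard core subunits, led by Psma1 (0.71 ± 0.09) and Psmb2 (0.68 ± 0.08), and 3 of the 8 lid subunits. All 4 tested myeloid markers (median -3.98), all 5 acinar markers (median -6.80) and both tested erythroid and platelet markers (median -5.02) were called lower in CD3_CD28_ICOS cells, as were 4 of 7 CD4 T cell markers (median -0.30), with 1 higher. Of the B cell markers 3 of 6 were called higher (median 1.16), and of the tested CD8 and NK cell markers 2 of 3 (median 1.77). Their part in the result was not tested.

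**Figure D3:**
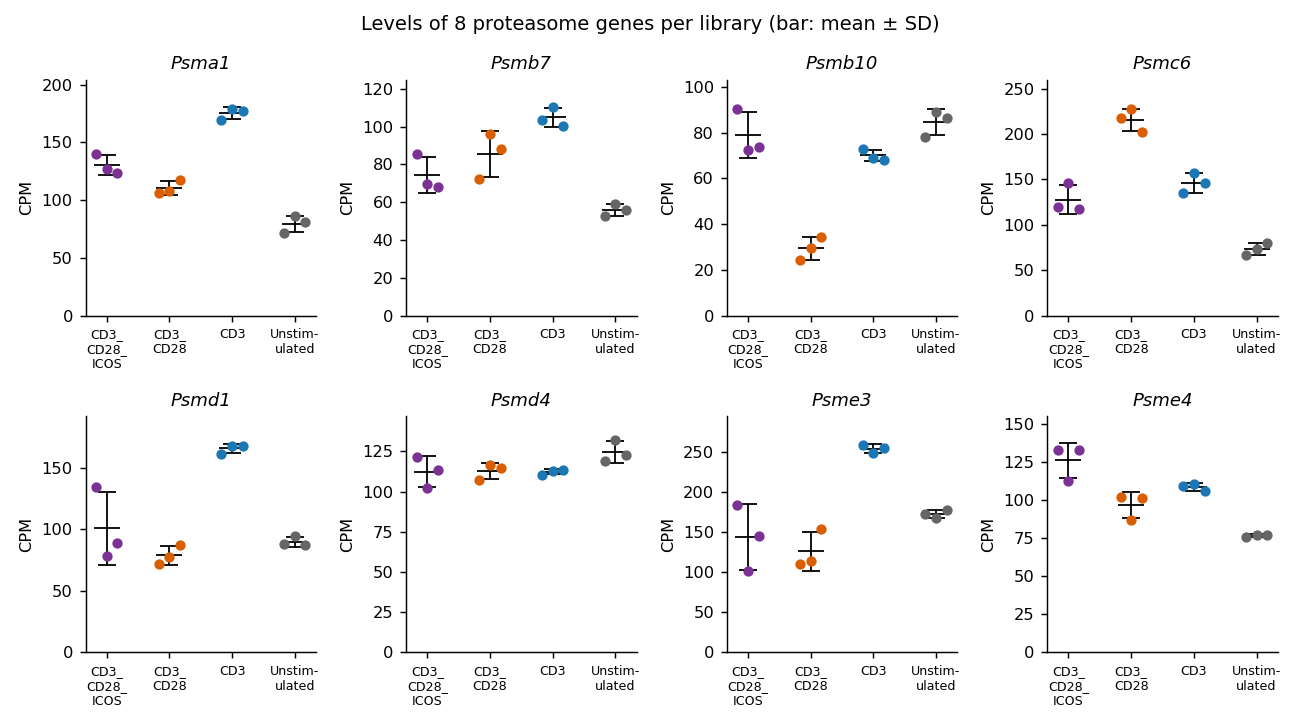
CPM of 8 proteasome genes in each library (points) with the mean ± SD of each group of 3 (bars); the vertical axis starts at 0. Psmb10 has 24.2 to 34.2 CPM in CD3_CD28 cells, below all other libraries, and Psmc6 has 202 to 227 CPM there, above all others.

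Psmb10 departed from the standard core. It encodes the inducible subunit that takes the place of the product of Psmb7 in the beta ring, and it lies on chromosome 8 from 105935735 to 105938444 on the minus strand (mm10). It had 90.4, 72.5 and 73.5 CPM in CD3_CD28_ICOS cells, 24.2, 29.6 and 34.2 CPM in CD3_CD28 cells, 72.9, 68.9 and 68.2 CPM in CD3 cells and 78.1, 89.0 and 86.2 CPM in Unstimulated cells. The CD3_CD28 libraries were the low ones and overlapped no other group. The log2 fold change was -1.50 ± 0.12 between CD3_CD28 and Unstimulated cells (limma adjusted p = 7.24e-08) and -1.24 ± 0.12 between CD3_CD28 and CD3 cells (adjusted p = 2.76e-06). It was 1.40 ± 0.12 between CD3_CD28_ICOS and CD3_CD28 cells (limma adjusted p = 4.41e-07). These calls held under all 23 alternative settings. CD3 cells were not called lower than Unstimulated cells (-0.26 ± 0.12, limma adjusted p = 0.0671), but 8 of the 23 alternative settings called this difference, with adjusted p from 0.00122 to 0.0471. No call was made between CD3_CD28_ICOS and CD3 cells (0.16 ± 0.12, limma adjusted p = 0.297). The sum of the 6 B cell markers was lowest in the same 3 CD3_CD28 libraries, at 6.67 to 9.36 CPM, and was 111 to 198 CPM in Unstimulated cells; its part in the level of Psmb10 was not tested.

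The ratio of Psmb10 to Psmb7 separated all 4 groups. The ratio of CPM, in which scaling cancels, was 1.06 ± 0.02 in CD3_CD28_ICOS cells, 0.344 ± 0.041 in CD3_CD28 cells, 0.669 ± 0.041 in CD3 cells and 1.51 ± 0.03 in Unstimulated cells (SD, n = 3 each). The test used the log2 ratio of CPM + 1, in which scaling cancels only nearly. An exact permutation test of its F statistic over 369600 arrangements, upper tail, gave p = 6.49e-05. That is the smallest p these arrangements can give, and it was 0.00013 adjusted over 2 ratios. No group overlapped another. In Unstimulated cells the inducible gene was the more abundant of the pair in CPM, and in CD3_CD28 cells it was the less abundant.

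**Figure D4:**
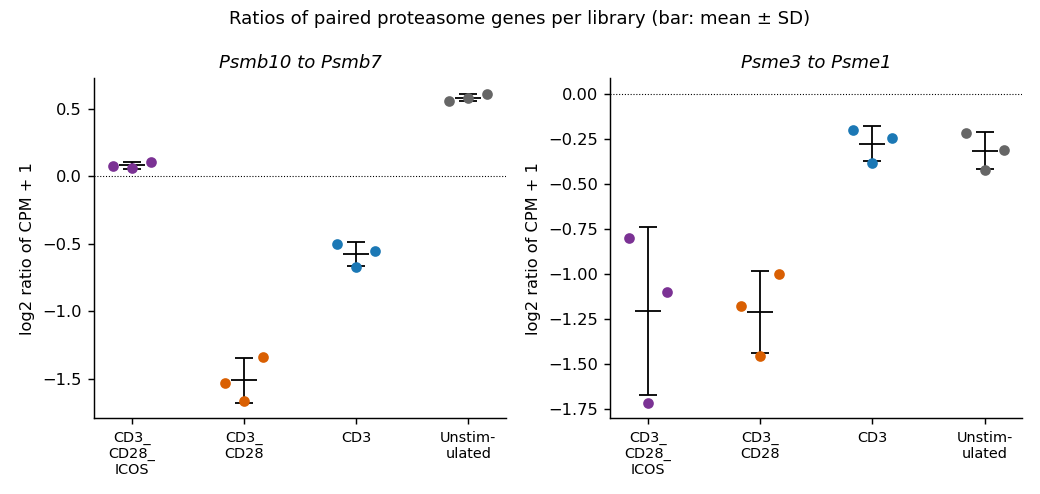
Log2 ratio of CPM + 1 of Psmb10 to Psmb7 (left) and of Psme3 to Psme1 (right) in each library, with the mean ± SD of each group of 3. The Psmb10 to Psmb7 ratio lies below -1.3 in the 3 CD3_CD28 libraries and above 0.5 in the 3 Unstimulated libraries.

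Psmc6 departed in the other direction. It encodes an ATPase of the base ring and lies on chromosome 14 from 45329788 to 45349705 on the plus strand (mm10), and its transcripts share no stretch of 100 bases with another gene. It had 119, 146 and 117 CPM in CD3_CD28_ICOS cells, 217, 227 and 202 CPM in CD3_CD28 cells, 135, 157 and 146 CPM in CD3 cells and 66.3, 73.5 and 79.8 CPM in Unstimulated cells. The CD3_CD28 libraries were the highest and overlapped no other group. The log2 fold change was 1.55 ± 0.10 between CD3_CD28 and Unstimulated cells (limma adjusted p = 1.14e-08), 0.56 ± 0.10 between CD3_CD28 and CD3 cells (adjusted p = 0.000402) and -0.76 ± 0.10 between CD3_CD28_ICOS and CD3_CD28 cells (adjusted p = 2.69e-05). The other 5 ATPase genes fell between CD3_CD28 and CD3 cells, by 0.34 to 0.95 on the log2 scale.

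Promoter windows are shown for Psmb10 and Psmc6, whose levels are described above. They are also shown for 2 others that hold a searched motif, the catalytic subunit Psmb5 and the activator Psme1. Each window runs from 250 bases before to 50 bases after a RefSeq start site (GRCm38.p6), read on the strand of the gene, and capitals mark matches on either strand.
Psmb10 (chr8:105938343-105938642, minus strand): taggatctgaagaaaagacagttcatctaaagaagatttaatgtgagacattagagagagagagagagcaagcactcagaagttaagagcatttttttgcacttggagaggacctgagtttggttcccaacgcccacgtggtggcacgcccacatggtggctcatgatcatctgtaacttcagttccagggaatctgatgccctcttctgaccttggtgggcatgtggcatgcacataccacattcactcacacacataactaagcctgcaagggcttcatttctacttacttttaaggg
Psmc6 (chr14:45329574-45329873, plus strand): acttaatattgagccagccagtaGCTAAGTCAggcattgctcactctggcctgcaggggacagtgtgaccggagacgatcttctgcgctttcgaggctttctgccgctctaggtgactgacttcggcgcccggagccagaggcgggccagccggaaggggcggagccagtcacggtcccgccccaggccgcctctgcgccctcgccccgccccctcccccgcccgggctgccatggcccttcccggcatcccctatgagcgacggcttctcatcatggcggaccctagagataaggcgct
Psmb5 (chr14:54617946-54618245, minus strand): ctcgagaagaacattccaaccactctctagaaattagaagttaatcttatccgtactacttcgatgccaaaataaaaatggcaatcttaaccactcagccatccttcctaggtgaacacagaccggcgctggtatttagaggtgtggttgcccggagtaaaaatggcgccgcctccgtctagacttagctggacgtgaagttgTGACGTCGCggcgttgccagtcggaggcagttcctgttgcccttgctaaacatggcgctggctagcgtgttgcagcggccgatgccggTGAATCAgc
Psme1 (chr14:55578244-55578543, plus strand): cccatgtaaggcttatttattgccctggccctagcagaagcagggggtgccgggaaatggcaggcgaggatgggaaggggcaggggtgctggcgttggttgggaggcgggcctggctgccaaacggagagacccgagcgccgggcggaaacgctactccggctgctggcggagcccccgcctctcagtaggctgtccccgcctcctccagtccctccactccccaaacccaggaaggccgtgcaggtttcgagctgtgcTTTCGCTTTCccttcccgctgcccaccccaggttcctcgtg
In Psmc6 the capitals mark an antioxidant response element on the opposite strand. In Psmb5 they mark an antioxidant response element and, nearer the end, an AP-1 site. In Psme1 they mark an interferon-stimulated element on the opposite strand, just past the start site.

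Motifs were searched by their letters on both strands in the windows of 39 proteasome genes found in the RefSeq table, 42 windows in all, in the 9468 windows of tested genes and in all 32841 windows of the table. The antioxidant response element TGACNNNGC, bound by Nfe2l1 and Nfe2l2, was in 14.3% of proteasome windows, 14.3% of windows of tested genes and 12.4% of all windows. Its 6 genes were Psmb5, Psmb6, Psmc6, Psmd12, Psmd9 and Psme4. The CCAAT box (CCAAT) was in 31.0% of proteasome windows, 37.9% of windows of tested genes and 37.4% of all windows. The gamma-activated site TTCNNNGAA was in 4.76% of proteasome windows, 6.95% of windows of tested genes and 8.30% of all windows, and the AP-1 site TGANTCA in 4.76%, 4.70% and 7.81% of the same 3 sets. The interferon-stimulated element was in 11.9% of proteasome windows, those of Psmb3, Psmd4, Psmd9, Psme1 and Psmg4, in 3.27% of windows of tested genes and in 3.44% of all windows. An AP-1 site can overlap an antioxidant response element in sequence, though the matches in Psmb5 and Psmd9 lie apart. A match describes letters and not a bound site, and the window of Psmb10 held none of the 5 patterns.

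The activator genes did not move as 1 group. Psme1, a subunit of the interferon-inducible cap, had 322, 336 and 312 CPM in CD3_CD28_ICOS cells, 249, 313 and 310.2 CPM in CD3_CD28 cells, 298, 324 and 302 CPM in CD3 cells and 201, 226 and 219.7 CPM in Unstimulated cells. The stimulated groups overlapped each other and all lay above Unstimulated cells, with changes of 0.59 ± 0.09 for CD3_CD28_ICOS (limma adjusted p = 0.000113), 0.43 ± 0.09 for CD3_CD28 (adjusted p = 0.000891) and 0.52 ± 0.09 for CD3 cells (adjusted p = 0.000221). Psme2b, the copy of its partner, had 109, 139 and 154 CPM in CD3_CD28 cells against 202, 228 and 215 CPM in CD3 cells (-0.69 ± 0.12, limma adjusted p = 0.000191). It had 230.2, 208 and 203 CPM in CD3_CD28_ICOS cells. Psme2 itself had 2.02 to 3.95 CPM in the 12 libraries and was not tested. With Psme2 and Psme2b added, the change between CD3_CD28 and CD3 cells was -0.69 (limma adjusted p = 0.000186).

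Psme3 encodes the subunit of a nuclear activator ring. It had 185, 102 and 145 CPM in CD3_CD28_ICOS cells, 109.9, 114 and 155 CPM in CD3_CD28 cells, 259, 249 and 255 CPM in CD3 cells and 173, 168 and 177 CPM in Unstimulated cells. The CD3 libraries were high and close together, and the 2 costimulated groups were spread widely and overlapped each other. The log2 fold change was 0.56 ± 0.18 between CD3 and Unstimulated cells (limma adjusted p = 0.0123), -1.02 ± 0.18 between CD3_CD28 and CD3 cells (adjusted p = 0.000272) and -0.86 ± 0.18 between CD3_CD28_ICOS and CD3 cells (adjusted p = 0.00153). Between CD3_CD28 and Unstimulated cells it was -0.47 ± 0.18 (limma adjusted p = 0.0278), a call lost without CD3_CD28 replicate 1 (adjusted p = 0.105), CD3_CD28 replicate 2 (adjusted p = 0.0914), Unstimulated replicate 1 (adjusted p = 0.0596) or Unstimulated replicate 3 (adjusted p = 0.0699).

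The ratio of Psme3 to Psme1 was 0.447 ± 0.136 in CD3_CD28_ICOS cells, 0.434 ± 0.068 in CD3_CD28 cells, 0.827 ± 0.054 in CD3 cells and 0.804 ± 0.058 in Unstimulated cells (ratio of CPM, SD, n = 3 each). An exact permutation test of the F statistic of the log2 ratio of CPM + 1, upper tail, gave p = 0.0063, and 0.0063 adjusted over 2 ratios. The ratios of both costimulated groups lay below all ratios of the CD3 and Unstimulated groups. Psme4, which encodes a large nuclear activator, was highest in CD3_CD28_ICOS cells, at 133, 113 and 133 CPM, against 102, 87.1 and 102 CPM in CD3_CD28, 109, 111 and 106 CPM in CD3 and 75.6, 77.4 and 77.3 CPM in Unstimulated cells. Its change was 0.71 ± 0.09 between CD3_CD28_ICOS and Unstimulated cells (limma adjusted p = 1.49e-05) and 0.50 ± 0.09 between CD3 and Unstimulated cells (adjusted p = 0.00023). CD3_CD28_ICOS and CD3_CD28 cells differed by 0.38 ± 0.09 (limma adjusted p = 0.00248), a call lost under median-of-ratios scaling (adjusted p = 0.0503).

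Genes that build or regulate the proteasome without a Psm symbol gave a mixed picture. Of 24 tested partners and regulators, 10 rose and 4 fell in CD3 relative to Unstimulated cells, with a median log2 fold change of 0.06, where 43.6% of all tested genes were called higher and 26.3% lower and their median was 0.18. In CD3_CD28 against CD3 cells 3 were higher and 9 lower, against 18.7% and 45.7% of all tested genes. In CD3_CD28_ICOS against CD3_CD28 cells 4 were higher and 8 lower, against 38.5% and 24.5% of all tested genes. The maturation factor of the core, Pomp, had the pattern of the core subunits, with 109, 87.3 and 90.5 CPM in CD3_CD28_ICOS cells, 72.5, 71.7 and 82.2 CPM in CD3_CD28 cells, 150.5, 144 and 147 CPM in CD3 cells and 73.0, 76.8 and 69.4 CPM in Unstimulated cells. Its change was 1.00 ± 0.10 between CD3 and Unstimulated cells (limma adjusted p = 4.86e-07) and -0.96 ± 0.10 between CD3_CD28 and CD3 cells (adjusted p = 3.03e-06). Ecpas, a scaffold that binds the proteasome, had the largest increase of the list in CD3 against Unstimulated cells (1.28 ± 0.12, limma adjusted p = 4.02e-07).

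Nfe2l1, the transcription factor known for raising proteasome genes when the protease is inhibited, followed another order. It had 115, 105 and 113 CPM in CD3_CD28_ICOS cells, 236, 256 and 246 CPM in CD3_CD28 cells, 135, 121 and 120.2 CPM in CD3 cells and 142, 136 and 139 CPM in Unstimulated cells. The CD3_CD28 libraries were the high ones and overlapped no other group. The change was 0.97 ± 0.08 between CD3_CD28 and CD3 cells (limma adjusted p = 5.5e-07) and -1.14 ± 0.08 between CD3_CD28_ICOS and CD3_CD28 cells (adjusted p = 5.85e-08). Between CD3 and Unstimulated cells it was -0.15 ± 0.08 (limma adjusted p = 0.1). The part of Nfe2l1 in the levels of proteasome genes was not tested. Nfe2l2, a related factor, was lower in CD3 than in Unstimulated cells (-1.01 ± 0.11, limma adjusted p = 2.61e-06). Ddi2, the protease that activates the Nfe2l1 protein, was lowest in CD3_CD28 cells, at 94.0, 106 and 103 CPM, against 131, 126 and 140.1 CPM in CD3 cells (-0.39 ± 0.08, limma adjusted p = 0.000823). Usp14, a deubiquitinase bound to the base, was higher in CD3 than in Unstimulated cells (0.82 ± 0.11, limma adjusted p = 9.18e-06), and Adrm1, a ubiquitin receptor, gave -0.14 ± 0.19 (limma adjusted p = 0.518).

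**Figure D5:**
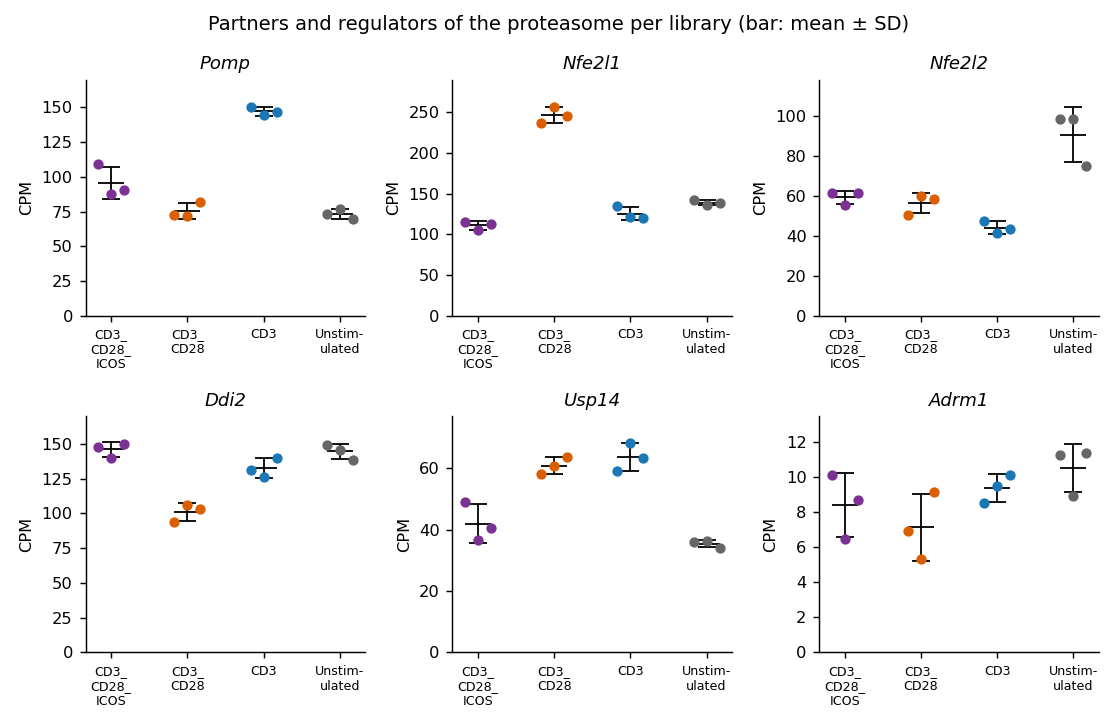
CPM of 6 partners and regulators of the proteasome in each library, with the mean ± SD of each group of 3; the vertical axis starts at 0. Pomp is highest in the 3 CD3 libraries, at 144 to 150.5 CPM, and Nfe2l1 in the 3 CD3_CD28 libraries, at 236 to 256 CPM.

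Other multi-subunit complexes were set beside the proteasome for the size of their changes. Between CD3 and Unstimulated cells the COP9 signalosome, which is built like the lid, had 7 of 10 genes higher and 0 lower (median 0.68), the TRiC chaperonin 8 of 8 higher (median 0.72) and the translation factor eIF3 10 of 13 higher and 0 lower (median 0.57), against 36 of 44 higher and a median of 0.61 for the proteasome. Over all tested genes 43.6% were called higher, and the median was 0.18. Between CD3_CD28 and CD3 cells the medians were -0.43 for the COP9 signalosome, -0.01 for TRiC and 0.16 for eIF3, against -0.48 for the proteasome and -0.24 over all tested genes. Between CD3_CD28_ICOS and CD3_CD28 cells the TRiC genes were lower in 7 of 8 cases (median -0.61), the eIF3 genes in 6 of 13 (median -0.36) and the COP9 signalosome genes in 2 of 10 (median -0.09), against 4 of 44 proteasome genes (median 0.13) and 24.5% of all tested genes (median 0.13). Ubiquitin genes and genes of ubiquitin activation were mixed, with 5 of 16 higher and 5 of 16 lower when CD3 was set against Unstimulated (median 0.13), where the shares over all tested genes were 43.6% and 26.3%.

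The authors' deposited table of comparisons gave fewer calls in each of the 6 comparisons at a false discovery rate under 0.05. For CD3 against Unstimulated cells the authors' deposited table had 26 of the 47 genes higher and 0 lower, where it called 26.1% of all genes in either direction. For CD3_CD28 against CD3 cells the authors' deposited table had 1 higher and 17 lower, where it called 17.0% of all genes. For CD3_CD28_ICOS against CD3_CD28 cells the authors' deposited table had 2 higher and 1 lower, where it called 19.5% of all genes. For CD3_CD28_ICOS against CD3 cells the authors' deposited table had 0 higher and 4 lower of the 47, a share close to the 8.66% of all genes it called, where limma had 30 of 44 lower. For CD3_CD28_ICOS against Unstimulated cells the authors' deposited table had 7 higher and 0 lower and called 18.1% of all genes, and for CD3_CD28 against Unstimulated cells 9 higher and 4 lower, where the authors' deposited table called 32.7% of all genes. The authors' deposited table gave Psmb10 a log2 ratio of -1.25 between CD3_CD28 and CD3 cells (false discovery rate 4.63e-06).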

How the data were processed

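Bulk RNA-seq libraries of mouse CD4+ T cells were analysed from the values that the authors deposited. The authors deposited CPM per gene; every library sums to the same total, with 0.0001 added to each cell. The authors also deposited a table of 6 comparisons with p-values, false discovery rates and log2 ratios, whose column of total counts equals the row sum of the CPM values for all 17203 genes within a relative difference of 1e-05. Partek version 10, DESeq2 and mm10 are named, per the submitters' processing notes, as used by the authors. The sources used here do not give the aligner, counter, annotation or strand setting. Without a stated strand, reads of overlapping and antisense genes cannot be told apart.

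Relative depth was read from the smallest step between low CPM values. Of the values up to 1.2 CPM, 76.1% to 81.1% came out as whole reads within 0.02 of a step, so counts were not recovered and no count model was run. Genes with at least 10 CPM in at least 3 libraries were tested on log2(CPM + 1) with limma 3.58.1 in R 4.3.3 (all 12 libraries, 4 group means, mean-variance trend, robust estimation, Benjamini-Hochberg adjustment over 9826 genes, threshold 0.05). Fold changes on this scale understate the change of low genes. Ratios of genes were tested as log2 ratios of CPM + 1 by an exact permutation test of the F statistic over samples (scipy 1.17.1). Shared sequence was counted as stretches of 100 bases in GENCODE M21 transcripts, and coordinates are those of mm10. The limma fit was tested on simulated data for CD3 against Unstimulated cells, and the other steps were not tested in this way.

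Genes named with full statistics were the called gene with the largest change in each direction in each class, together with the catalytic, activator, inhibitor and chaperone genes and Psmd14. Others that are named were chosen after their values were seen. The members and lists were chosen with earlier results of these data known. Alternatives covered the pseudocount, the filter, scaling, a ribosomal RNA gene, the variance model, the replicate block and each library left out. Merging copies, leaving out 2 libraries together and counting without Psmc3ip were added after seeing the data.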

Additional observations from a re-analysis of the deposited data

How the results depend on the processing

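Across 23 alternative settings the counts of called proteasome genes stayed within 1.5 times the count reported for CD3 against Unstimulated cells called higher, CD3_CD28 against CD3 called lower, and CD3_CD28_ICOS against CD3 called lower. Leaving out 1 library at a time gave 35 to 37 higher and 0 to 1 lower in CD3 against Unstimulated, 16 to 22 higher and 7 to 10 lower in CD3_CD28 against Unstimulated, and 14 to 18 higher and 0 to 6 lower in CD3_CD28_ICOS against Unstimulated cells. It gave 1 higher and 26 to 33 lower in CD3_CD28 against CD3, 8 to 18 higher and 2 to 9 lower in CD3_CD28_ICOS against CD3_CD28, and 0 to 1 higher and 26 to 31 lower in CD3_CD28_ICOS against CD3. The 1 gene lower in CD3 against Unstimulated appeared without CD3_CD28 replicate 1, CD3_CD28 replicate 3 or CD3_CD28_ICOS replicate 1, and the 1 higher in CD3_CD28_ICOS against CD3 without CD3_CD28 replicate 2 or CD3_CD28_ICOS replicate 2. The 2 lower in CD3_CD28_ICOS against CD3_CD28 were seen without CD3_CD28 replicate 3, and the 0 lower in CD3_CD28_ICOS against Unstimulated without CD3_CD28_ICOS replicate 3, Unstimulated replicate 1 or Unstimulated replicate 2. With median-of-ratios scaling, 4 genes were lower in CD3 against Unstimulated, 5 lower in CD3_CD28_ICOS against Unstimulated, 4 higher in CD3_CD28 against CD3, 8 higher and 13 lower in CD3_CD28_ICOS against CD3_CD28, and 1 higher in CD3_CD28_ICOS against CD3. With quantile normalization the same counts were 5, 5, 2, 9 and 13, and 1. Without the ribosomal RNA gene, 1 gene was lower in CD3 against Unstimulated and 8 were lower in CD3_CD28_ICOS against CD3_CD28. The 2 groups of a comparison fitted alone gave 1 lower in CD3 against Unstimulated cells. Without CD3_CD28 replicate 1 and CD3_CD28_ICOS replicate 1 together, a setting chosen after seeing the data, 1 was lower in CD3 against Unstimulated, 7 were lower in CD3_CD28_ICOS against Unstimulated, and 4 were higher and 12 lower in CD3_CD28_ICOS against CD3_CD28. The cause of these changes was not tested. Among single genes, Psma3 in CD3 against Unstimulated cells was 0.40 with its copy merged, Psmf1 in the same comparison was -0.22 with quantile normalization, and Psmd5 in CD3_CD28 against CD3 was 0.18 with median-of-ratios scaling, each a change of sign. The pseudocount of 0.1 CPM changed no call.

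With the replicate number as a block, 36 genes were higher and 0 lower in CD3 against Unstimulated, 1 higher and 31 lower in CD3_CD28 against CD3, and 12 higher and 4 lower in CD3_CD28_ICOS against CD3_CD28 cells. Same-numbered libraries correlated at -0.0999 to 0.408 in their deviations from the group means, and 6 of 18 pairs were over 0.1. Libraries with different numbers were not compared in this way, so whether the numbers pair the samples is not known. The ratio of Psme3 to Psme1 gave p of 0.0024 to 0.0153 with 1 library left out (exact permutation test), and that of Psmb10 to Psmb7 gave 6.49e-05 throughout. The latter is the smallest p that the test can give, also with 1 library left out. With 3 libraries a group and no counts, small changes of genes near 10 CPM are not resolved.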

Other observations

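Of the 47 proteasome genes, 10 lie on chromosome 11, which is 21.3% of them, against 7.53% of all genes listed. Chromosome 2 holds 6 and chromosome 14 holds 5. Psmc3ip, the meiotic recombination factor that is no subunit, had 7.22, 3.10 and 4.26 CPM in CD3_CD28_ICOS cells, 4.63, 5.86 and 6.84 CPM in CD3_CD28 cells, 14.2, 14.6 and 12.2 CPM in CD3 cells and 2.58, 3.41 and 2.89 CPM in Unstimulated cells. It passed the filter through the CD3 group alone, so a higher level there was favoured by that choice. The pseudogene Psma5-ps had 63.4, 62.3 and 69.4 CPM in CD3 cells against 29.5, 35.5 and 30.4 CPM in Unstimulated cells, and its parent Psma5 had 6.50, 10.4 and 6.46 CPM in CD3 cells against 3.22, 3.02 and 2.57 CPM in Unstimulated cells.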
